A study of Homo sapiens with 6 samples.

Results

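The NF-kappaB pathway is a signalling system in which stimulus receptors release a family of transcription factors from cytoplasmic inhibitors. Receptors such as Toll-like receptors and the interleukin-1 and TNF receptors pass the signal through adaptors, TRAF ubiquitin ligases and the TAK1 kinase complex to the IkappaB kinase (IKK) complex, which marks the IkappaB inhibitors for destruction. The freed dimers of NF-kappaB subunits then activate cytokine and adhesion genes together with genes of their own inhibitors, so the pathway limits itself. Genes for every step were measured here in the established cell line MDA-MB-436, which was derived from a triple-negative human breast cancer.

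A list of 45 genes defined the set, and every probe set whose entry in the annotation of the array platform includes a listed gene was taken. This gave 87 probe sets for 41 genes, out of 54613 probe sets and 21357 named genes on the arrays. BIRC3, TRAF2, IRAK4 and RIPK1 had no probe set in the annotation table used here and were not analysed here. BCL3 and ZC3H12A were read only by probe sets that also name a microRNA gene (MIR8085 and MIR6732). A gene was represented by its brightest probe set, and dimmer ones are given beside it where their call or sign differs and they lie above the median of all values in at least 1 group.

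RNA from 3 arrays labelled wild type was compared with RNA from 3 arrays labelled NF1-C2S transfected. The transfected cells are MDA-MB-436 that carry an expression plasmid with NF1-C2 after stable transfection, and the sample records also write the construct as NF-C2. NF1-C2 is a form of nuclear factor I-C, a transcription factor encoded by NFIC. Both groups grew in RPMI-1640 medium with serum, antibiotics and insulin, and no stimulus of the pathway is named in the labels. The wild type cells are not described as carrying an empty plasmid, and the sources used here do not say whether a clone or a pool was profiled, which promoter drives the plasmid or how long after transfection RNA was taken. Separate cultures are not named for the 3 replicates of a group. The p-values therefore measure only the spread between these arrays, which may be technical. In bulk RNA, more cells that express a gene and more RNA per cell cannot be told apart.

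The arrays correlated at 0.992 to 0.997 within a group and at 0.971 to 0.976 between groups. The brightest probe set of NFIC itself was not higher on the transfected arrays, with 8.47 ± 0.06 against 8.25 ± 0.04 on the log2 scale (SD, n = 3 each; log2 change -0.22, limma adjusted p = 0.082). Whether that probe set reads the message from the plasmid is not known here. That probe set, the only NFIC probe set looked at here, therefore gives no check on the labels. Every direction below is taken from the labels. Of the markers of the labelled cell type, breast tumour epithelial cells, KRT18 was well expressed at 12.55 in the wild type group, while E-cadherin (CDH1) and KRT19 lay under the median of all values on the arrays, 4.82, in both groups. KRT8, the partner of KRT18, read 6.59 and 6.64, and EPCAM read 5.71 and 4.96 (adjusted p = 0.0709, or 0.0199 with the replicate number as a block). KRT18 fell by 0.93 to 11.62, and vimentin (VIM) fell from 13.54 to 13.01. Of the 4 measured leukocyte markers, PTPRC, CD3E and LYZ lay under that median in both groups and did not pass the test, and CD14, the endotoxin co-receptor, rose by 0.82 (adjusted p = 0.0115). The summed linear signal of those 4 ranged from 90.3 to 113 in wild type arrays and from 127 to 168 in transfected arrays, and its part in the results was not tested. None of the 3 endothelial or 4 fibroblast markers passed the test.

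More of the listed genes were higher than lower on the transfected arrays. Of the 41 members, 21 were higher, 4 were lower and 16 did not pass the threshold of a limma adjusted p under 0.05. The same test called 29.0% of all genes, 13.9% higher and 15.1% lower, against 51.2% and 9.76% of the members. The members were chosen with earlier results of these data known, so these shares are no independent evidence of a direction. The median log2 change (transfected minus wild type) was 0.32 over the members and 0.0011 over all genes. All 6 genes grouped here as negative feedback rose. That grouping leaves out NFKBIA, itself an early target of the pathway, which is placed with the inhibitors and IkappaB-like genes. The inducible nuclear factor NFKBIZ, the subunit RELB, the IKK-related kinase TBK1 and the adhesion receptor ICAM1 rose as well. The classical inhibitor NFKBIA, the IKK subunits CHUK, IKBKB and IKBKG, and the subunit RELA did not pass the test. The 4 members that fell were the receptor TLR3, the adaptor MYD88, the kinase-like IRAK2 and the ubiquitin ligase BIRC2. At a log2 change of at least 1 in size, 7 members passed, where 6.64% of all genes did.

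**Figure D1:**
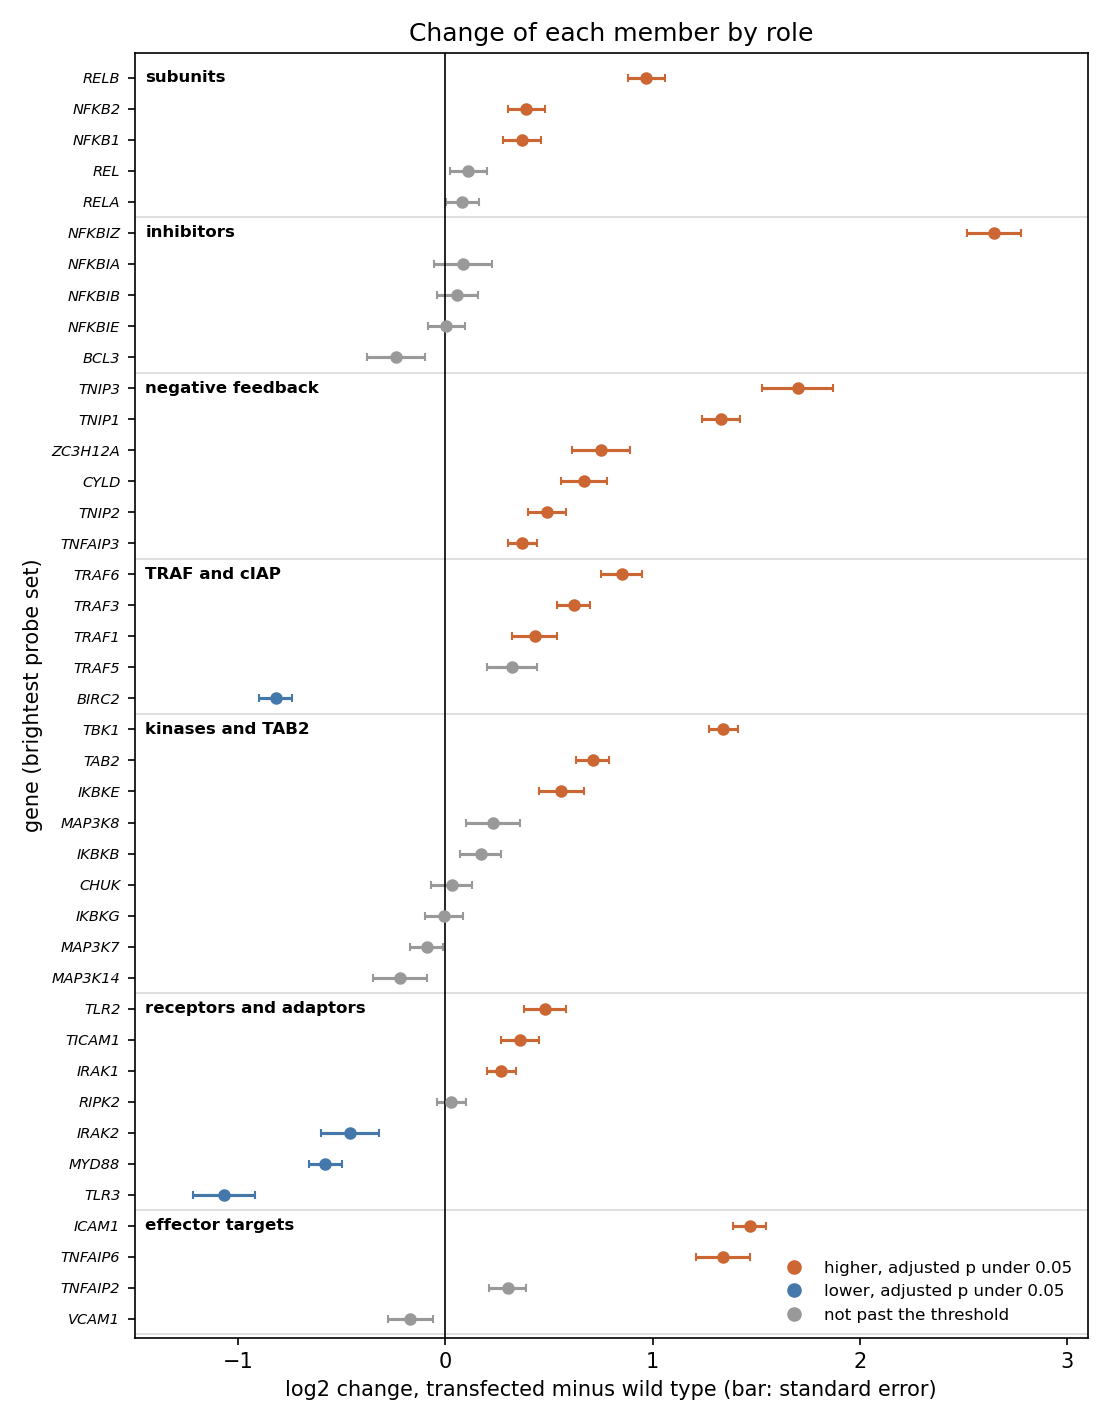
The plot shows the log2 change (transfected minus wild type, x axis) with its standard error for the brightest probe set of each of the 41 measured members (y axis), grouped by role. Changes run from -1.07 for TLR3 to 2.65 for NFKBIZ, and all 6 genes grouped as negative feedback lie to the right of 0. The inhibitor group includes the IkappaB-like genes NFKBIZ and BCL3.

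Of the 5 subunits, RELB, NFKB2 and NFKB1 rose, and REL and RELA did not pass. RELB, which pairs with the product of NFKB2 in the alternative pathway, read 6.55, 6.68 and 6.63 on the wild type arrays and 7.60, 7.47 and 7.71 on the transfected arrays. The groups did not overlap, and RELB rose 1.96-fold (log2 change 0.97, SE 0.09, limma adjusted p = 0.000187). NFKB2, the p100 precursor, read 7.86, 8.05 and 7.82 against 8.27, 8.32 and 8.31. Its groups were apart as well, and it rose by 0.39 (SE 0.09, adjusted p = 0.0138). Another NFKB2 probe set rose by 0.57 (adjusted p = 0.00685), and the remaining one, near background, read -0.03.

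NFKB1, the p105 precursor of the classical p50 subunit, read 8.44, 8.49 and 8.62 in wild type and 8.99, 8.87 and 8.80 in transfected arrays, a rise of 0.37 (SE 0.09, adjusted p = 0.0193). Its lowest transfected array lay above its highest wild type array. The calls of NFKB1 and NFKB2 each depended on single arrays. The call of NFKB1 ended without wild type replicate 1 (adjusted p = 0.0736), wild type replicate 2 (0.0677) or transfected replicate 2 (0.0555), and that of NFKB2 without wild type replicate 1 (0.0546), wild type replicate 3 (0.0533) or transfected replicate 2 (0.0504).

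RELA and REL carry the transactivation domains of the classical dimers. RELA read 9.18, 9.33 and 9.28 against 9.29, 9.41 and 9.33, and REL read 8.23, 8.41 and 8.44 against 8.38, 8.48 and 8.56. In each the groups overlapped. The 95% interval of the difference was -0.10 to 0.27 for RELA (adjusted p = 0.594) and -0.10 to 0.33 for REL (adjusted p = 0.497). None of the 5 REL and 2 RELA probe sets passed the test, and their changes ran from -0.14 to 0.13 for REL and from -0.017 to 0.081 for RELA.

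**Figure D2:**
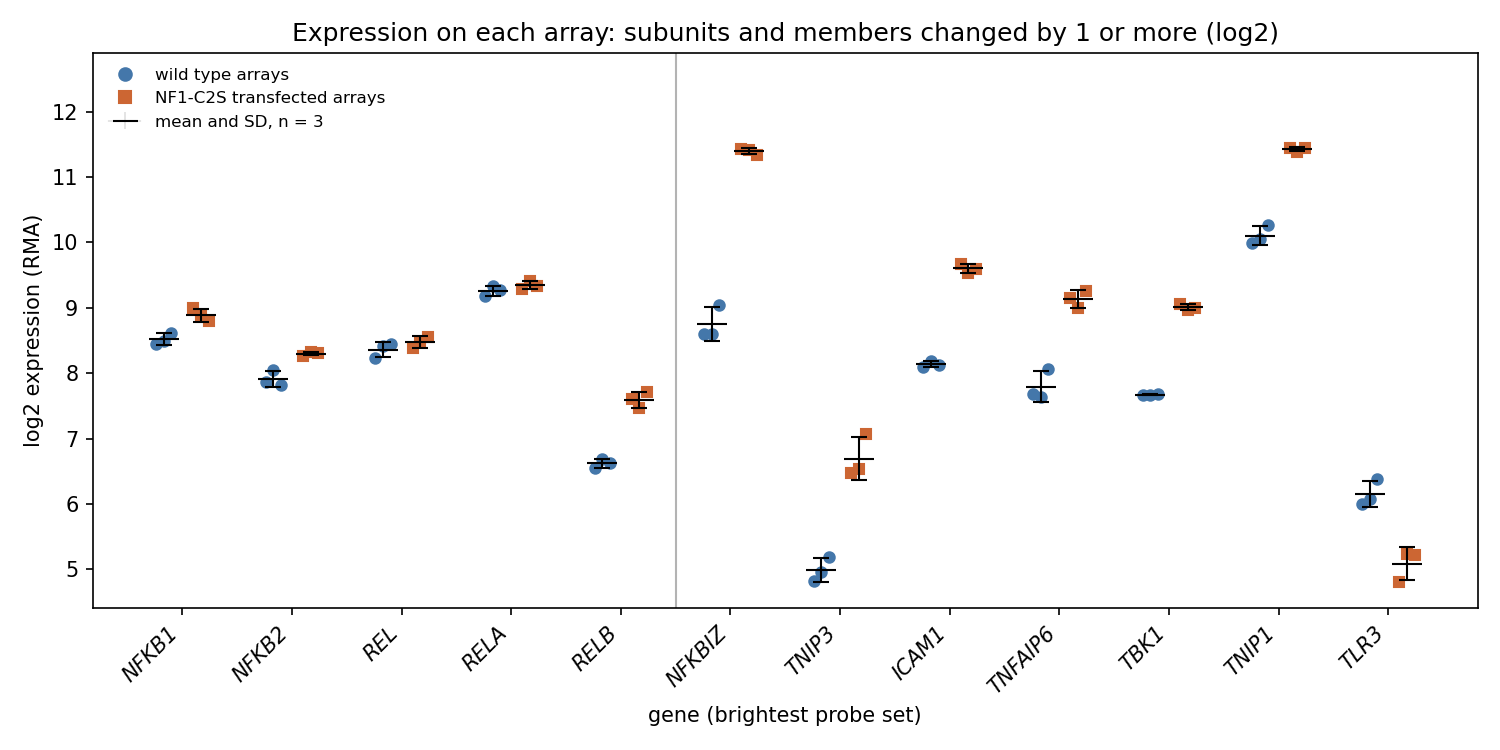
Each point is the log2 expression (RMA, y axis) of a gene (x axis) on 1 array, circles for wild type and squares for NF1-C2S transfected, with the mean and SD of each group of 3. The 5 subunits stand left of the grey line, and the 7 members called with a log2 change of at least 1 in size stand right of it. No wild type point overlaps a transfected point there, which the choice by call and size favours. Groups that do not overlap were found for 43.1% of all genes.

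Of the inhibitors and IkappaB-like genes, NFKBIZ had a large rise, and NFKBIA, NFKBIB, NFKBIE and BCL3 did not pass on their brightest probe sets. NFKBIZ encodes IkappaB-zeta, an inducible nuclear IkappaB protein that acts with p50 dimers on late inflammatory genes. It read 8.60, 8.60 and 9.05 in wild type and 11.43, 11.42 and 11.34 in transfected arrays. This was a 6.26-fold rise (log2 change 2.65, SE 0.13, adjusted p = 1.18e-05), and the lowest transfected array stood above every wild type array. The dimmer NFKBIZ probe set rose by 2.68 (adjusted p = 1.55e-05).

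NFKBIA, the classical inhibitor IkappaB-alpha and a standard early target of the pathway, read 10.97, 10.87 and 11.39 against 11.14, 11.10 and 11.24. The wild type replicate 3 was the highest of all 6 arrays and the groups overlapped. The change of 0.085 did not pass (95% interval -0.23 to 0.40, adjusted p = 0.766), and without wild type replicate 3 it was 0.24 (adjusted p = 0.143). NFKBIE, a further cytoplasmic inhibitor, read 7.63, 7.66 and 7.65 against 7.54, 7.59 and 7.82 (95% interval -0.21 to 0.22). NFKBIB did not pass on its brightest probe set (0.057, adjusted p = 0.796), although a dimmer one rose by 0.58 (adjusted p = 0.00493). BCL3, a nuclear IkappaB protein that binds p50 and p52 dimers, read -0.24 (adjusted p = 0.315). Leaving out wild type replicate 3 moved this to -0.077.

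The genes grouped here as negative feedback, a group without NFKBIA, all rose. TNIP1, TNIP2 and TNIP3 encode the ABIN proteins, which bind polyubiquitin and the ubiquitin-editing enzyme A20. TNIP3 read 4.82, 4.96 and 5.19 in wild type arrays, close to the median of all values, and 6.47, 6.54 and 7.07 in transfected arrays. It rose 3.26-fold (log2 change 1.70, SE 0.17, adjusted p = 0.000283) with no overlap between the groups. TNIP1 read 9.99, 10.05 and 10.27 against 11.45, 11.39 and 11.45, a 2.51-fold rise (log2 change 1.33, SE 0.09, adjusted p = 5.66e-05). That rise was read by a probe set ending in _s_at, which can share probes with other transcripts, and the remaining TNIP1 probe set, which is dim, read 0.41 (adjusted p = 0.13) and passed with the replicate number as a block (0.0242).

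TNIP2 rose by 0.49 (adjusted p = 0.00546), and its 3 probe sets rose by 0.44 to 0.50. TNFAIP3, which encodes A20 itself, was already high and rose by 0.37 (SE 0.07, adjusted p = 0.00877), with 10.87, 10.86 and 10.93 in wild type and 11.22, 11.23 and 11.31 in transfected arrays. Its second probe set rose by 0.38 (adjusted p = 0.0131). CYLD, a deubiquitinase that removes signalling chains, rose by 0.67 (adjusted p = 0.00325), and 4 of its 7 probe sets rose, by 0.58 to 0.85, while the other 3 read -0.013, 0.14 and 0.18. ZC3H12A, an RNase that degrades cytokine messages, rose by 0.75 (adjusted p = 0.00658). All 6 feedback genes had transfected arrays entirely above the wild type arrays. Groups that do not overlap were found for 43.1% of all genes.

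The promoters of several of these genes are shown because these genes are known targets of NF-kappaB, and the letters of its motif can be read there. Promoter windows of RefSeq genes on GRCh38.p14, each 250 bases before to 50 bases after a transcription start, were searched on both strands for the kappaB consensus of the field, a motif of 10 bases, and overlapping matches were merged. The consensus was GGGRNNYYCC, where R is A or G, Y is C or T and N is any base. Of the 45 listed genes, 41 had a window, and RELB, NFKBIE, IKBKB and RIPK2 had none. A match was present in 24 of the 65 windows of members (36.9%) and in 11.3% of all 35116 windows. It was present for 11 of the 20 higher members that have a window, for 6 of the 13 that did not pass and for 0 of the 4 that fell, where 13.3% of all 27305 genes with a window had one. A match is a string of letters and no evidence of binding. Below are the 250 bases before the start, 5′ to 3′ on the strand of the gene, with matches in capitals. TNIP1 and NFKB1 each have another window, which holds no match, and NFKBIZ has another that holds one. NFKBIZ (chr3:101827740-101827989, plus strand) and TNIP1 (chr5:151081035-151081284, minus strand) had large rises, and TNFAIP3 (chr6:137867009-137867258, plus strand) and NFKB1 (chr4:102501109-102501358, plus strand) had small ones. NFKBIA (chr14:35404750-35404999, minus strand) did not pass, VCAM1 (chr1:100719492-100719741, plus strand) lay near background, and ICAM1 (chr19:10270870-10271119, plus strand) rose with no match.
NFKBIZ: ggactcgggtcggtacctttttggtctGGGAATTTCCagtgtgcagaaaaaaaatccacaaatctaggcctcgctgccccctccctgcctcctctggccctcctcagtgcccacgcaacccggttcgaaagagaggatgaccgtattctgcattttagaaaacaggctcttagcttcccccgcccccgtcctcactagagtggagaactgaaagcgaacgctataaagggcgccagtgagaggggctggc
TNIP1: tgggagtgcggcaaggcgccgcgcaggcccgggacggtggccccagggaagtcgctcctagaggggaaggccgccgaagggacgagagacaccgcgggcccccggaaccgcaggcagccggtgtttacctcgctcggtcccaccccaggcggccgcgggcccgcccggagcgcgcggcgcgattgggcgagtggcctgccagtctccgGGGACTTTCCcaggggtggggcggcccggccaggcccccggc
TNFAIP3: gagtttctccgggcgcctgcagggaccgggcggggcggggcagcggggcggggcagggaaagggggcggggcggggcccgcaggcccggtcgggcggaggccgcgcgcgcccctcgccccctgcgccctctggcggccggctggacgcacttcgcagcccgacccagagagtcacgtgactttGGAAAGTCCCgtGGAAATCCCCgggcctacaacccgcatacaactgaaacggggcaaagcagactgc
NFKB1: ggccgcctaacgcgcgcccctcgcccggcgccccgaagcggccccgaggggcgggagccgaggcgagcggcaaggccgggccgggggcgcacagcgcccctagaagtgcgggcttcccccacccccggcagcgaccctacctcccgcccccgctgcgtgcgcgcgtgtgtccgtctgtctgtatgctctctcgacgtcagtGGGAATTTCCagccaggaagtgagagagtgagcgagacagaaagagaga
NFKBIA: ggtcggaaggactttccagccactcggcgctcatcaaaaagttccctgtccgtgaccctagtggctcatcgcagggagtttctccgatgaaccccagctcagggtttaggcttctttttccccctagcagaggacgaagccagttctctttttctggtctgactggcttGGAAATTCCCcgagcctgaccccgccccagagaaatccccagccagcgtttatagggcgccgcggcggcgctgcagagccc
VCAM1: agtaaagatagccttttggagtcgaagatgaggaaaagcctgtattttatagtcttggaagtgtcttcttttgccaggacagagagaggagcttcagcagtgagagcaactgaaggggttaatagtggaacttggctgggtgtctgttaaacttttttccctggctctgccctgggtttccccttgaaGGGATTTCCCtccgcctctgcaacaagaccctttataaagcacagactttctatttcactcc
ICAM1: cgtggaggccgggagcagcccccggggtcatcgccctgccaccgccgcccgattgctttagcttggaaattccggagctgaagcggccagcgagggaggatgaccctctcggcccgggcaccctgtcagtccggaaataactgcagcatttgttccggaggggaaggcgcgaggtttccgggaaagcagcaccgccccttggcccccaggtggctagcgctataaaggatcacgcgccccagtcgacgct

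The same letters, GGGAATTTCC, stand at positions -223 to -214 of NFKBIZ, counted so that -1 is the last base before the start, with a log2 change of 2.65, and at -49 to -40 of NFKB1, with a log2 change of 0.37. TNIP1 has GGGACTTTCC at -42 to -33, and TNFAIP3 has GGAAAGTCCC at -67 to -58 and GGAAATCCCC at -55 to -46. GGAAAGTCCC is the site of TNIP1 read on the other strand. NFKBIA, which did not pass, has GGAAATTCCC at -81 to -72. Read on the other strand, this is GGGAATTTCC, the site of NFKBIZ and NFKB1. VCAM1, with GGGATTTCCC at -62 to -53, was near background in both groups. Matches were thus present both in members that rose and in members that did not pass. That ICAM1 has none says only that no full match to the consensus is in this window. Sequences that differ from the consensus at any base were not counted.

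**Figure D3:**
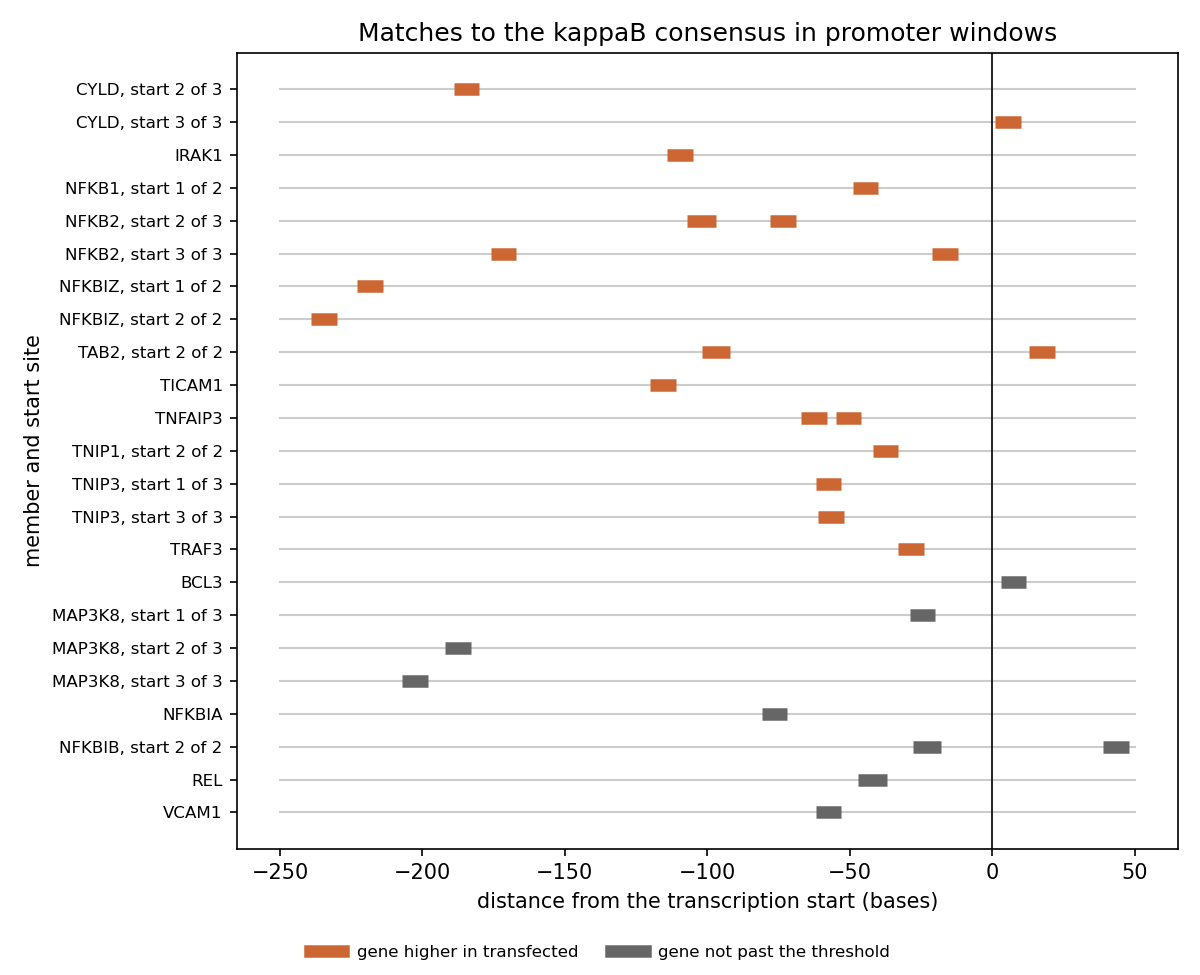
The map shows matches to the kappaB consensus (bars) by distance in bases from the transcription start (x axis). Each window with a match of a member that has a probe set is a row (y axis), so BIRC3, which has matches, is not drawn. Colour marks whether the gene was higher on the transfected arrays or did not pass the test. Matches appear in windows of members that rose and of members that did not pass, such as NFKBIA, REL and VCAM1.

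TRAF proteins and cIAPs are the adaptors and ubiquitin ligases that build the signalling platform. TRAF6, the ligase downstream of Toll-like and interleukin-1 receptors, read 6.71, 6.75 and 6.72 in wild type and 7.5, 7.45 and 7.78 in transfected arrays, a rise of 0.85 (SE 0.10, adjusted p = 0.000671), and its second probe set rose by 1.19 (adjusted p = 0.000322). TRAF3, which restrains the alternative pathway by keeping its kinase NIK unstable, rose by 0.62 (adjusted p = 0.0011), while its dimmer probe set read 0.0067. TRAF1, an inducible adaptor, rose by 0.43 (adjusted p = 0.0278), a call that ended without any 1 of 5 arrays (adjusted p = 0.0975, 0.0768 and 0.0621 without wild type replicates 1, 2 and 3, and 0.0641 and 0.0659 without transfected replicates 2 and 3). The dimmer TRAF1 probe set read 0.33 (adjusted p = 0.134). TRAF5 read 0.32 and did not pass (adjusted p = 0.0969), but passed with the replicate number as a block (0.0353).

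BIRC2, a cIAP ligase that acts with TRAF2 and TRAF3 against NIK, was the member of this group that fell. It read 10.21, 10.28 and 10.34 in wild type and 9.44, 9.49 and 9.43 in transfected arrays, a 1.77-fold fall (log2 change -0.82, SE 0.08, adjusted p = 0.00018). Every transfected array lay below every wild type array.

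Among the kinases, the IKK-related pair rose and the IKK complex did not pass. TBK1, which phosphorylates interferon regulatory factors and also dampens IKK, read 7.66, 7.67 and 7.68 against 9.06, 8.97 and 9.0. The 2.53-fold rise (log2 change 1.34, SE 0.07, adjusted p = 1.76e-05) was far larger than the spread within either group. Its relative IKBKE, which is inducible, rose by 0.56 on the brighter probe set and 0.59 on the other (adjusted p = 0.0068 and 0.000828). TAB2, the ubiquitin-binding partner of TAK1, rose by 0.71 (adjusted p = 0.000483) and by 0.59 on its other well-expressed probe set, both ending in _s_at, while a probe set near background read 0.03.

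The catalytic IKK subunits CHUK and IKBKB and the scaffold IKBKG read 0.03, 0.17 and -0.0067, with 95% intervals of -0.20 to 0.26, -0.05 to 0.39 and -0.22 to 0.21. The dimmer IKBKB probe sets read -0.14 and -0.11, and the dimmer IKBKG probe set read 0.027, none of them past the threshold. Neither MAP3K14, the kinase NIK of the alternative pathway, nor MAP3K8, a kinase released from p105, passed (log2 changes -0.22, or -0.34 to -0.12 without 1 array, and 0.23, adjusted p = 0.325 and 0.301), although MAP3K8 passed without wild type replicate 3 (0.37, adjusted p = 0.0303). MAP3K7, which encodes TAK1, did not pass on 3 probe sets that read -0.21 to -0.09, but its dimmest probe set rose by 0.54 (adjusted p = 0.00461). The probe sets of this gene thus disagreed, and its direction is uncertain.

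Receptors and their adaptors went both ways, with 3 higher, 3 lower and 1 that did not pass. TLR3, the endosomal receptor for double-stranded RNA, read 6.0, 6.08 and 6.38 in wild type and 4.80, 5.24 and 5.22 in transfected arrays. It fell 2.10-fold (log2 change -1.07, SE 0.15, adjusted p = 0.00149), and its second probe set fell by 0.67 (adjusted p = 0.0295). TICAM1, the adaptor that TLR3 uses, rose by 0.36 (adjusted p = 0.025), a call that ended without wild type replicate 1 or 2 or transfected replicate 2 or 3 (adjusted p = 0.0862, 0.091, 0.0697 and 0.0862). TLR2, the receptor for bacterial lipoproteins, rose by 0.48 from a level near the median of all values (adjusted p = 0.00786).

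MYD88, the adaptor shared by most Toll-like receptors and the interleukin-1 receptor, read 9.23, 9.17 and 9.32 against 8.60, 8.75 and 8.63, a fall by 0.58 (SE 0.08, adjusted p = 0.00162). Of the kinases recruited to it, IRAK1 rose by 0.27 (adjusted p = 0.0337) and IRAK2 fell by 0.46 (adjusted p = 0.0467). Both calls were marginal. That of IRAK1 ended with the replicate number as a block (adjusted p = 0.0506) and without any array except wild type replicate 3 (0.0747 to 0.108), and that of IRAK2 without any array except transfected replicate 3 (0.0524 to 0.147). The dimmer IRAK1 probe set rose by 0.37 (adjusted p = 0.0291), and the next IRAK2 probe set read -0.57 (adjusted p = 0.0621), passing with that block (0.032). RIPK2, the kinase that carries signals from NOD receptors, read 0.027 (95% interval -0.14 to 0.19), and its dimmer probe set read -0.13 (adjusted p = 0.562).

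Of the 4 effector targets, ICAM1 and TNFAIP6 rose. ICAM1, the adhesion receptor for leukocyte integrins, read 8.10, 8.19 and 8.12 in wild type and 9.67, 9.54 and 9.60 in transfected arrays, a 2.77-fold rise (log2 change 1.47, SE 0.08, adjusted p = 1.6e-05), and its other probe sets rose by 1.37 and 0.99. TNFAIP6, a hyaluronan-binding protein secreted in inflammation, read 7.68, 7.63 and 8.07 against 9.15, 8.99 and 9.26, a 2.53-fold rise (log2 change 1.34, SE 0.13, adjusted p = 0.000274). In both the transfected arrays stood above all wild type arrays. TNFAIP2 narrowly missed the threshold at 0.30 (adjusted p = 0.0548), passing with the replicate number as a block (0.031). Its dimmer probe set read 0.018 (adjusted p = 0.943, or 0.907 with the block), and the mean of both read 0.16 (adjusted p = 0.187). VCAM1, the endothelial adhesion molecule, read 3.11, 3.34 and 3.42 against 3.02, 3.26 and 3.08, far under the median of all values in both groups.

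The dimmer probe sets mostly followed the brightest one. Of the 87 member probe sets, 38 were higher, 5 lower and 44 did not pass, where 22.2% of all probe sets were called. No member had probe sets called in opposite directions, and in 12 members at least 2 probe sets were called the same way. In 11 probe sets both group means lay under the median of all values, and array signal there says little about change.

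**Figure D4:**
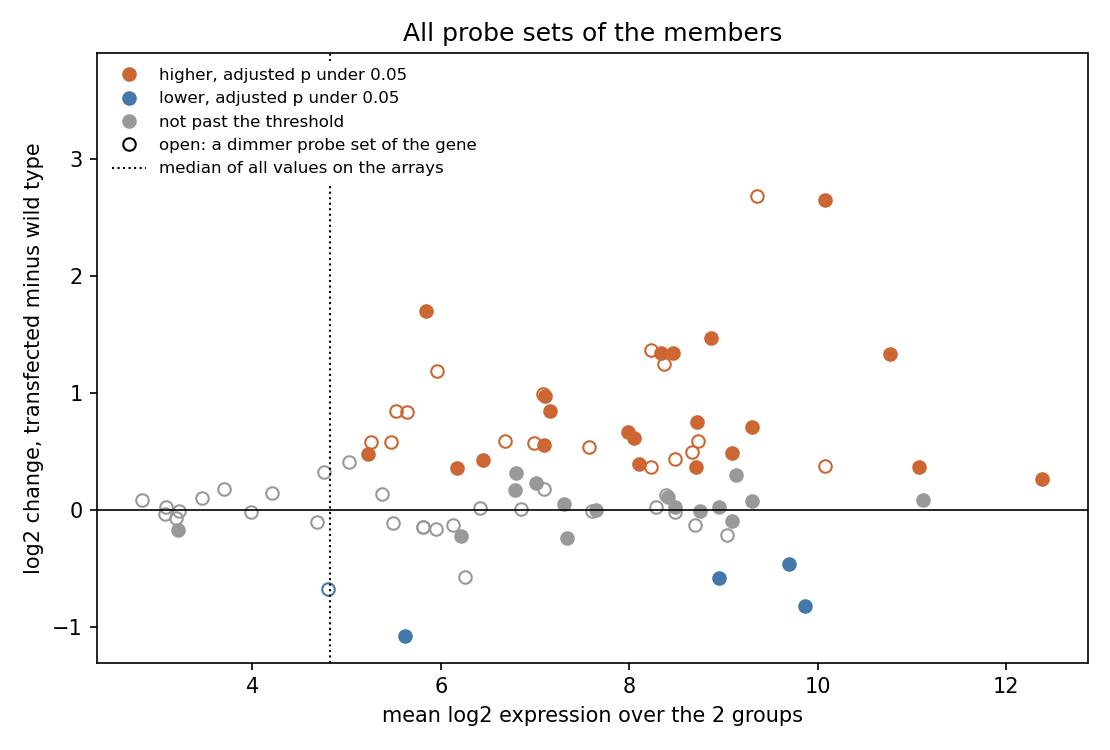
Each point is 1 of the 87 probe sets of the members, with mean log2 expression over both groups (x axis) against log2 change (y axis), filled for the brightest probe set of a gene and open for dimmer ones. Called rises and falls lie right of the dotted median of all values, 4.82, apart from the second TLR3 probe set, with group means of 5.14 and 4.47.

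The chromosomal surroundings of the members differed between the groups for some of them. For each member the median log2 change was taken over up to 10 protein-coding genes on each side in the order of RefSeq genes, and it ranged from -0.57 to 0.55 over the members with a median of 0.027. Around MYD88 it was -0.57, with 10 of 20 neighbours lower and 0 higher, beside the fall of MYD88 itself by 0.58. Around IRAK2 it was -0.46, with 14 of 20 lower and 0 higher, and IRAK2 fell by the same amount. Around TBK1 and TNFAIP6 it was 0.53 and 0.55, with 11 of 20 neighbours higher in each case, and the members exceeded their neighbours by 0.81 and 0.80. Of the 21 higher members, 6 had a neighbours' median of at least 0.2. The others were TNIP3 (0.29), TRAF6 (0.26), IKBKE (0.26) and TAB2 (0.22), which exceeded their neighbours by 1.42, 0.59, 0.29 and 0.48. The neighbours of NFKBIZ, TNIP1, ICAM1 and RELB had medians of 0.027, 0.015, 0.10 and 0.0049. TLR3 and BIRC2 fell beside medians of 0.057 and -0.088. Among members that did not pass, TRAF5 had a neighbours' median of 0.28 with 10 of 20 higher. NFKBIA had -0.26 with 7 of 20 lower, and RIPK2 had -0.20 with 9 of 20 lower. MYD88 and IRAK2 both lie on chromosome 3. Such medians were not computed around all genes, so how common they are is not known here. The part of the neighbourhood in these changes was not tested.

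**Figure D5:**
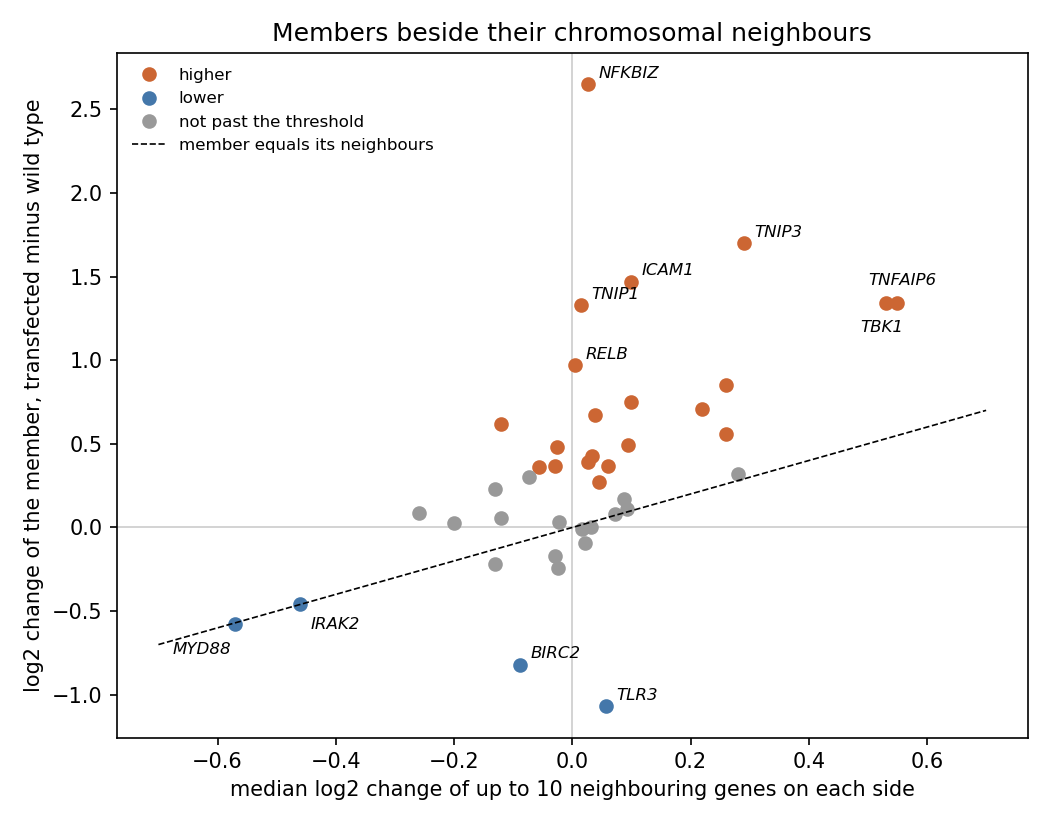
Each point is a member, with the median log2 change of up to 10 neighbouring genes on each side (x axis) against its own log2 change (y axis), and the dashed line marks equality. MYD88 and IRAK2 lie on the line, while NFKBIZ, ICAM1, TNIP1 and RELB rose where their neighbours' medians lay between 0.0049 and 0.10.

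Other components of the pathway did not share the predominance of rises. Of 55 measured genes for further receptors, adaptors, ubiquitin ligases and regulators, 12 were higher, 14 lower and 29 did not pass, with a median log2 change of -0.063 against 0.0011 over all genes. These are 21.8% higher and 25.5% lower, against 13.9% and 15.1% of all genes. The largest rises were those of IRAK3, an inhibitory IRAK whose wild type mean of 4.69 lay under the median of all values (1.39, adjusted p = 0.000243), OTULIN, which removes linear ubiquitin (1.10, adjusted p = 5.31e-05), the interleukin-1 receptor IL1R1 (1.00, adjusted p = 0.000407) and the ligase PELI1 (0.92, adjusted p = 0.003). The largest falls were those of CARD10, a scaffold of the BCL10 complex (-1.19, adjusted p = 0.000118), AZI2, an adaptor of TBK1 (-0.92, adjusted p = 0.000149), the TNF receptor TNFRSF1A (-0.92, adjusted p = 0.000263) and NKIRAS1, an IkappaB-binding GTPase (-0.77, adjusted p = 0.0028).

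Of 31 measured textbook target genes outside the set, 17 were higher, 6 lower and 8 did not pass, with a median of 0.56. These are 54.8% higher and 19.4% lower, against 13.9% and 15.1% of all genes, and the difference was not tested. The chemokines CCL20, CXCL1 and CXCL3 rose by 4.09, 3.35 and 2.96, and the prostaglandin synthase PTGS2 rose by 3.94 (adjusted p = 1.3e-06, 3.65e-05, 9.84e-06 and 7.12e-05). The wild type mean of PTGS2, 4.11, lay under the median of all values, where the size of a change is not well determined. Tissue factor (F3), the cyclin CCND1, MYC and the plasminogen activator PLAU fell by 1.30, 0.86, 0.59 and 0.59. TNF itself, named after its value was seen, lay under the median of all values and read -0.12 (adjusted p = 0.489). This list was drawn up with earlier results of these arrays known, and it is no independent evidence of a direction.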

How the data were processed

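The deposited table holds log2 values of 6 arrays. They were made with RMA, per the submitters' processing notes, a method that corrects background, normalizes arrays and summarizes probe sets. Its version, and which arrays it was run on jointly, could not be read from these notes. It compresses differences of dim probe sets. Arrays have no read depth, and their number limits the precision. Control probe sets (62) were left out, and platform gene symbols were updated by gene identifier to GRCh38.p14 names. Of the others, 41091 name 1 gene, 1801 several and 11721 none. All 54613 were fitted with limma 3.58.1 in R 4.3.3, with Benjamini-Hochberg adjustment over all of them. The code of the fit was run on simulated arrays with independent noise and few changed probe sets. Those arrays differ from the real ones in both respects, so that run says nothing about the calls made here. Each gene takes its value from its brightest single-gene probe set, or, lacking one, from its brightest shared probe set. Intervals are 95% intervals of the moderated fit.

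The members and lists were chosen with earlier results of these data known. The text names all members, per-array values for subunits and for members called with a log2 change of at least 1 (and others where a sentence needs them), and up to 4 genes per direction of each further list.

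Arrays of the same replicate number deviated together from their group means, with correlations of 0.398, 0.238 and 0.140. The main fit does not use these numbers, and it gives every count, p-value and interval for which no block is named. A fit with the number as a block was run beside it. Its result is given where it changes the call of a gene or probe set named in the text. Wild type replicate 2 with transfected replicate 3 also gave 0.142, and the labels do not say what the numbers mark.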

Additional observations from a re-analysis of the deposited data

How the results depend on the processing

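The counts of called members stayed within 1.5 times of 25 under the alternatives run: 24 to 27 under other normalizations, array weights, another variance prior, a filter on dim probe sets, a fit over genes, the mean of probe sets and the replicate block (26), 19 with only probe sets that end in neither _x_at nor _s_at, for which 29 members have a value, and 19 to 24 without 1 array. The replicate block ended the call of IRAK1 and added TNFAIP2 and TRAF5, and it changed no other call of a member. Of the 25 called members, 17 kept their call and sign under all alternatives with a value, and 6 (IRAK1, IRAK2, NFKB1, NFKB2, TICAM1 and TRAF1) lost it without at least 1 array. Among the 17, NFKBIZ, TNFAIP3, TNFAIP6 and ICAM1 have only probe sets ending in _s_at, so they had no value under the restriction by suffix. With that restriction, TNIP1 (0.41, adjusted p = 0.13) and TAB2 (0.03, adjusted p = 0.889) did not pass, and NFKBIB did (0.58, adjusted p = 0.00493). IRAK2 did not pass with median centring (adjusted p = 0.0532) or the mean of probe sets (-0.31, adjusted p = 0.0759). With that mean NFKBIB passed (0.27, adjusted p = 0.0351). TNFAIP2 also passed with array weights (adjusted p = 0.0481), another variance prior (0.0124) and the filter on dim probe sets (0.028). It passed too with the fit over genes (0.0361) and without wild type replicate 3 (0.039). TRAF5 also passed with quantile normalization (0.0495), with array weights (0.0414) and without transfected replicate 1 (0.0319). No called change turned its sign. Changes near 0 that did, none of them called in either fit, were the following, and the cause was not tested. For the mean of probe sets they were IKBKB at -0.027, IKBKG at 0.01, MAP3K7 at 0.027, NFKBIA at -0.0076 and RIPK2 at -0.052. With the restriction by suffix they were IKBKG at 0.027, NFKBIA at -0.10 and RIPK2 at -0.13. Cyclic loess gave NFKBIE at -0.0023 and array weights gave IKBKG at 0.024. Leaving out 1 array gave CHUK at -0.04 and NFKBIE at -0.0043 (wild type replicate 1), NFKBIA at -0.018 (wild type replicate 2), IKBKG at 0.018 and NFKBIB at -0.023 (wild type replicate 3), IKBKG at 0.065 (transfected replicate 1) and NFKBIE at -0.081 (transfected replicate 3). The lowest and highest values without 1 array were -0.04 and 0.12 for CHUK, -0.065 and 0.065 for IKBKG, -0.018 and 0.24 for NFKBIA, -0.023 and 0.12 for NFKBIB, and -0.081 and 0.059 for NFKBIE. Signal far under the median of all values in both groups limits what VCAM1 can show. The wild type means of TLR2 (4.98) and TNIP3 (4.99) lay just above that median, which limits how well the size of their rises is known.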

Other observations

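Wild type replicate 3 was the highest wild type array for most of these genes, and it is the only array with values stored to more than 2 decimals, 6354 in all and 29 of the 87 member probe sets. Among the members whose highest wild type value was not tied, wild type replicate 3 was the highest in 29 of 40 (72.5%), against 33.7% of all genes. The difference between replicate 3 and the mean of replicates 1 and 2 had a median of 0.11 over the members and -0.0022 over all genes, and it reached 0.3 in 9 of 41 members (22%) and in 4.48% of all genes. It was 0.50 for ZC3H12A, 0.48 for BCL3, 0.47 for NFKBIA, 0.45 for NFKBIZ, 0.44 for MAP3K8 and 0.41 for TNFAIP6. Without that array the rises of NFKBIZ, TNFAIP6 and ZC3H12A were 2.80, 1.48 and 0.92, in place of 2.65, 1.34 and 0.75. Transfected replicate 3 was the highest of its group in 22 of 39 members (56.4%), against 36.2% of all genes. This pattern was noticed after the values were seen and was not tested.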
